A study of Mus musculus with 8 samples.

Results

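The nuclear factor I (NFI) family of the mouse has 4 genes, Nfia, Nfib, Nfic and Nfix, and all 4 were taken by symbol from the 43629 gene IDs of the deposited table. They were measured by RNA sequencing in dorsal forebrain of male embryos at E12.5, the tissue that gives rise to the neocortex. All 8 samples were on a mixed C57BL/6J background. In the Sufu-cKO group were 4 samples (Mut_295, Mut_317, Mut_337, Mut_340) of Emx1-cre/+;Sufu-fl/fl, a genotype in which cre recombines Sufu in dorsal telencephalic progenitors and their progeny, while other cells of the tissue keep it. Controls were 4 samples (Cont_294, Cont_345, Cont_365 and Cont_370) labelled Sufu-fl/fl or Sufu-fl/+, with no cre allele named. SUFU restrains the GLI transcription factors of the hedgehog pathway. Levels are given as CPM, counts normalised to library size with TMM factors.

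NFI proteins are transcription factors that bind DNA as dimers of the same or different members, through a conserved N-terminal domain, while their C-terminal parts differ. Their full site is a palindrome of TTGGC, a spacer of 5 bases and GCCAA, and a single TTGGC arm is bound more weakly. In the embryonic forebrain NFIA, NFIB and NFIX are made by radial glia and young neurons, and they promote the step from dividing progenitors to neurons and glia. Mice without Nfia, Nfib or Nfix have defects of the corpus callosum or hippocampus, whereas NFIC is best known for its role in tooth root formation.

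All 4 NFI transcripts had lower mean levels in Sufu-cKO, and 2 of them, Nfix and Nfic, passed the test (edgeR quasi-likelihood test, adjusted p under 0.05). Nfix fell most, to 53.3% of control, and Nfic fell to 72.9%. Nfib stood at 74.0% and Nfia at 80.1% of control without passing. Over the 15382 genes tested, 5.64% were called lower, 11.0% were called in either direction and 48.2% had a log2 fold change below 0. Among the 6964 genes at or above the mean CPM of Nfic, 4.95% were called lower. The count of 2 rested on single libraries: no member passed without Cont_365 (edgeR, lowest adjusted p = 0.0541). Only Nfix passed without Cont_345, Mut_317 or Mut_337, and only Nfib without Mut_340 (edgeR, adjusted p = 0.0343). With all 8 samples limma-voom called Nfix and Nfic lower (adjusted p = 0.00534 and 0.0335), among 5.60% of genes.

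Promoter sequence is given as a description, because SUFU acts through GLI factors. It is shown for the 2 members that passed, and its part in their lower levels was not tested. The RefSeq promoter table used here, on GRCm38.p6, holds 6 starts of the members, 4 for Nfix, 1 for Nfia and 1 for Nfic, and Nfib promoters were not analysed here. The 250 bases before each start were searched on both strands for CCACCCA, the core of the GLI site, for the longer GLI site GACCACCCA that contains it, and for the NFI palindrome and its TTGGC arm. The core CCACCCA stood in 3 of the 4 Nfix windows, 115, 192 and 116 bases before the start, and in neither the Nfia nor the Nfic window. The Nfia window lies 190791 bases from the nearest coding transcript start of Nfia in GENCODE M21, outside the deposited gene span, so promoters at those Nfia starts were not searched. The first Nfix window shown lies 5713 bases from the nearest such start of Nfix and the second 1459 bases. The Nfix window with the core that is not printed lies 14 bases from such a start. The core CCACCCA was present in 8.11% of the 32851 windows of all genes. GACCACCCA (0.225% of windows) and the NFI palindrome (0.0365%) were in none of the 6. The TTGGC arm (41.5%) was in 2 Nfix windows. CCACCCA overlaps the CACCC box of KLF factors, and a match of these letters is a description, not a bound site. Of the windows with the core, 1 lies wholly inside an annotated Nfix exon and is not printed. The other Nfix windows with the core, and the Nfic window for comparison, are given on the minus strand, 5′ to 3′, with CCACCCA or TTGGC in capitals on either strand.
Nfix, chr8:84780083-84780332: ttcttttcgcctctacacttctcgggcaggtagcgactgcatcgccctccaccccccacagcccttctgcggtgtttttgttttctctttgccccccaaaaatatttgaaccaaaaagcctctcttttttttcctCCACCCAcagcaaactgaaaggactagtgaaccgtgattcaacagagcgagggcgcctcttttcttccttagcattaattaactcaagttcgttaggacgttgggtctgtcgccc
Nfix, chr8:84775829-84776078: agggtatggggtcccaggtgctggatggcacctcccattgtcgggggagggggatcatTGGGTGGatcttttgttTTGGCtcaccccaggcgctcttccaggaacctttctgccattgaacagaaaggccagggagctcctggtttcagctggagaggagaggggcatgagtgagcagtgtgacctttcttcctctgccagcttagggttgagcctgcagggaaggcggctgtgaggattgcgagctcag
Nfic, chr10:81427174-81427423: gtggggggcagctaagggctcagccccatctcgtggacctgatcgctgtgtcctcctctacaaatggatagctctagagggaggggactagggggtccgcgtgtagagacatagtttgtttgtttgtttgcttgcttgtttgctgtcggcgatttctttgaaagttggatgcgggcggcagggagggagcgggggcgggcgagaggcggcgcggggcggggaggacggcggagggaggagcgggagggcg

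The libraries held 27514357 to 34878838 counts each. Sufu counts matched the genotype labels, with 105 to 125 CPM in control and 35.9 to 44.8 CPM in Sufu-cKO, as did the hedgehog targets Gli1 (1.27 to 3.56 against 43.6 to 52.1 CPM) and Ptch1 (19.6 to 28.1 against 205 to 281 CPM). All 12 genes listed as markers of dorsal forebrain were tested and none was at 0, while 3 rose and 6 fell. By the same test 5.34% of all tested genes rose and 5.64% fell. The labels do not say whether samples of a genotype came from separate embryos, and p-values therefore reflect only sample-to-sample spread, part of which may be technical. In bulk tissue, fewer cells of a type and less RNA per cell cannot be told apart.

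Nfix (ENSMUSG00000001911, chromosome 8, 84699876 to 84800344, minus strand, GRCm38) encodes an NFI member that drives radial glia toward intermediate progenitors. Nfix is needed for normal hippocampal development. Its level was 268 CPM in Cont_294, 376 in Cont_345, 336.7 in Cont_365 and 242 in Cont_370. In Sufu-cKO it was 192 CPM in Mut_295, 172 in Mut_317, 116 in Mut_337 and 172 in Mut_340. The groups did not overlap, all Sufu-cKO values being the lower ones, and Mut_337 was the lowest of the 8. The means were 306 ± 61.6 and 163 ± 33.0 CPM (SD, n = 4 each), a log2 fold change of -0.91 (95% interval -1.35 to -0.47; edgeR, adjusted p = 0.0199). Of the tested genes, 2.33% had a lower log2 fold change than Nfix. The call was lost without Cont_365 (-0.87; edgeR, adjusted p = 0.0541), without Mut_340 (-0.94; edgeR, adjusted p = 0.0654) and without the low-count filter (-0.91; edgeR, adjusted p = 0.0637).

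Nfic (ENSMUSG00000055053, chromosome 10, 81396186 to 81431005, minus strand) was the least abundant member, with 707 to 1342 counts per sample. Control samples held 32.6 CPM (Cont_294), 38.6 (Cont_345), 42.4 (Cont_365) and 31.5 (Cont_370). Sufu-cKO samples held 30.9 CPM (Mut_295), 27.7 (Mut_317), 24.3 (Mut_337) and 22.8 (Mut_340). The groups did not overlap, but the highest Sufu-cKO sample, Mut_295, was close to the lowest control, Cont_370. The means were 36.3 ± 5.17 and 26.4 ± 3.62 CPM (SD, n = 4 each), a log2 fold change of -0.46 (95% interval -0.71 to -0.20; edgeR, adjusted p = 0.0272). Nfic did not pass without Cont_345 (edgeR, adjusted p = 0.0838), Cont_365 (0.0816), Mut_317 (0.0507), Mut_337 (0.0686) or Mut_340 (0.0720). It passed when Cont_294, Cont_370 or Mut_295 was left out. Every Sufu-cKO sample was below every control sample for 7.86% of tested genes, Nfic and Nfix among them, and above for 8.33%.

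Nfib (ENSMUSG00000008575, chromosome 4, 82290173 to 82705750, minus strand), needed for callosal axons and for cortical glia, was the most abundant member, with 16298 to 27521 counts per sample. It stood at 794 CPM in Cont_294, 956 in Cont_345, 870 in Cont_365 and 691 in Cont_370. Sufu-cKO samples had 540 CPM (Mut_295), 658 (Mut_317), 490 (Mut_337) and 763 (Mut_340). Mut_340 lay within the control range, and the other Sufu-cKO samples lay below it. The means were 827 ± 113 and 613 ± 123 CPM (SD, n = 4 each), with a log2 fold change of -0.43 (95% interval -0.77 to -0.10) that did not pass (edgeR, unadjusted p = 0.0166, adjusted p = 0.108). Nfib passed without Mut_340 (-0.56; edgeR, adjusted p = 0.0343), and with all samples in DESeq2 (-0.44; adjusted p = 0.0137). By DESeq2, 6.35% of genes with an adjusted p were called lower.

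Nfia (ENSMUSG00000028565, chromosome 4, 97772734 to 98118874, plus strand), which acts with SOX9 at the onset of gliogenesis, had 334 CPM in Cont_294, 395 in Cont_345, 320 in Cont_365 and 267 in Cont_370. In Sufu-cKO it had 233 CPM (Mut_295), 297 (Mut_317), 224 (Mut_337) and 300 (Mut_340). Mut_317 and Mut_340 lay within the control range and the groups overlapped. The means were 329 ± 52.6 and 263 ± 40.5 CPM (SD, n = 4 each), and the log2 fold change of -0.32 (95% interval -0.62 to -0.02) did not pass (edgeR, unadjusted p = 0.0404, adjusted p = 0.193). It was not called in any of the 16 other settings or fits with 1 sample left out (adjusted p from 0.0611 to 0.396).

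**Figure D1:**
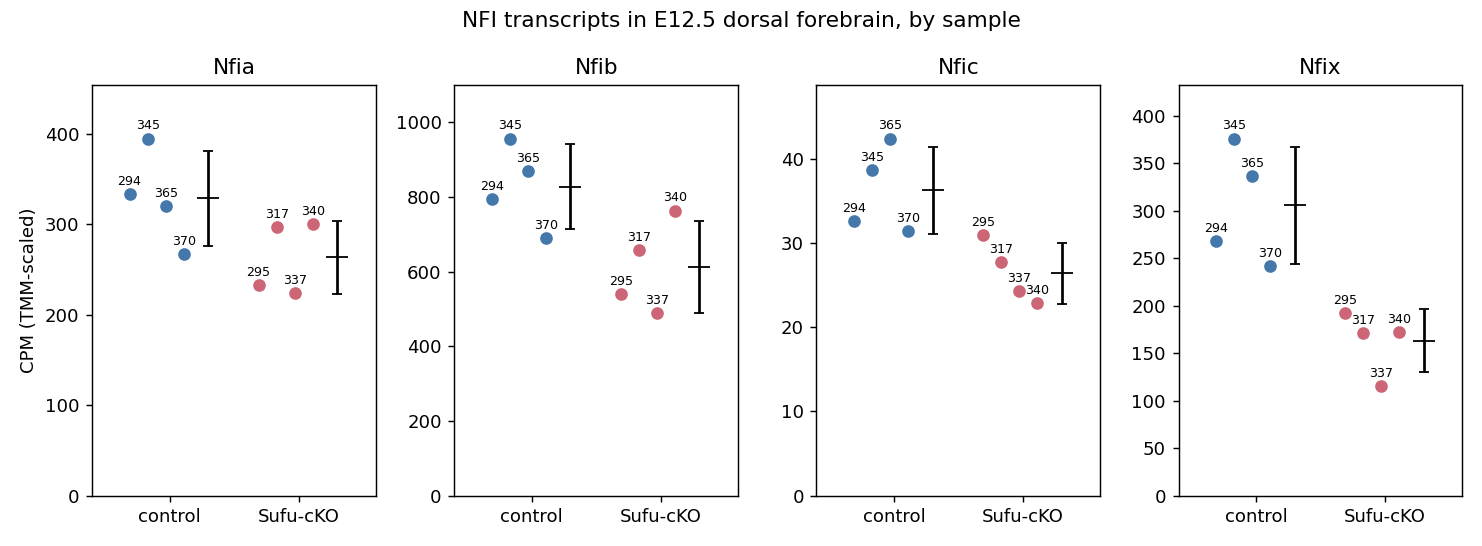
CPM (linear axis from 0) of each NFI gene in the 4 control (blue) and 4 Sufu-cKO (red) samples, each point labelled with its sample number, with the mean ± SD as a bar at the right of each group. Nfic and Nfix separate the genotypes, while Nfia and Nfib overlap.

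The authors' deposited table gave the same order of fold changes. There Nfix stood at 0.533 of control (false discovery rate 0.00138) and Nfic at 0.728 (0.0367). In the authors' deposited table Nfib stood at 0.739 (false discovery rate 0.145) and Nfia at 0.800 (0.471). A false discovery rate under 0.05 with a fold change below 1 was reached by 3.10% of the genes with a value in the authors' deposited table.

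**Figure D2:**
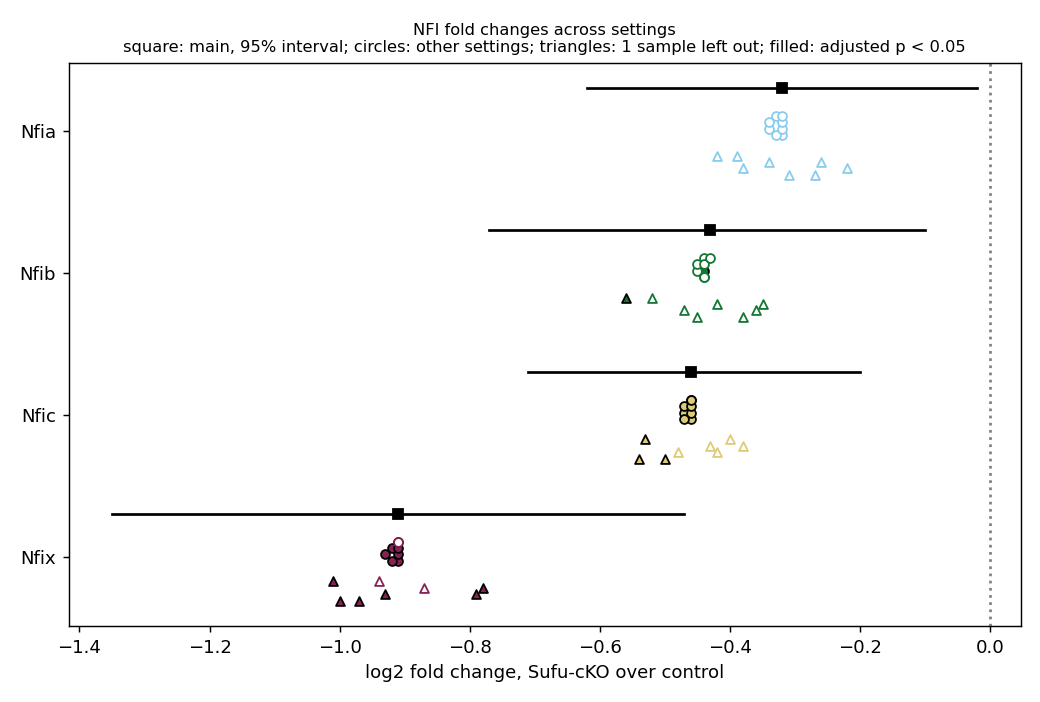
Log2 fold change of each NFI gene, Sufu-cKO over control: the main value with its 95% interval (square), 8 other settings (circles) and 8 fits with 1 sample left out (triangles), filled where the adjusted p was under 0.05. All values lie below 0, Nfix from -1.01 to -0.78 and Nfia from -0.42 to -0.22.

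The same samples were low for several members. Cont_370 had the lowest control value of all 4 genes, and Cont_345 the highest of Nfia, Nfib and Nfix. Within Sufu-cKO, Mut_337 was lowest for Nfia, Nfib and Nfix, while Mut_340 was highest for Nfia and Nfib and lowest for Nfic. Markers of other cells also stood apart in some of these samples. Summed CPM of the 14 tested ventral telencephalic and GABAergic genes was 240 in Cont_370 against 119 to 156 in the other controls. In Sufu-cKO this sum was 358 in Mut_295, 145 in Mut_317, 238 in Mut_337 and 346 in Mut_340. The 11 tested choroid plexus genes summed to 107 CPM in Mut_340 and to 287 to 311 in the other Sufu-cKO samples. Summed CPM of the 15 meningeal genes was 1770 in Mut_337, while Mut_295, Mut_317 and Mut_340 had 833 to 877 and controls 1056 to 1139. The part of these cells in the NFI values was not tested. Without Cont_370 the log2 fold changes were -1.01 for Nfix, -0.53 for Nfic, -0.52 for Nfib and -0.42 for Nfia. Without Mut_337 they were -0.78 for Nfix, -0.43 for Nfic, -0.35 for Nfib and -0.26 for Nfia.

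To compare levels between members, CPM was divided by the exon length of each gene in GENCODE M21, from 6630 bases for Nfic to 14957 bases for Nfib. In control, Nfib had 55.3 ± 7.55 CPM per kb, Nfix 41.6 ± 8.38, Nfia 30.2 ± 4.83 and Nfic 5.47 ± 0.780 (SD, n = 4). On this scale Nfib exceeded 95.3% of the 15284 tested genes with a length, Nfix 92.7%, Nfia 88.7% and Nfic 49.4%. Adjacent SDs of Nfib, Nfix and Nfia overlapped, but the order Nfib, Nfix, Nfia, Nfic was the same in each of the 4 controls. In Sufu-cKO the levels were 41.0 ± 8.21 CPM per kb for Nfib, 24.2 ± 3.72 for Nfia, 22.2 ± 4.49 for Nfix and 3.99 ± 0.546 for Nfic. Nfia exceeded Nfix in 3 of 4 Sufu-cKO samples per kb, the exception being Mut_295, and in 0 of 4 controls. By counts alone Nfia exceeded Nfix in 3 of 4 controls and in 4 of 4 Sufu-cKO samples.

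The 4 levels per kb summed to 108 to 157 CPM per kb in control and 72.7 to 105 in Sufu-cKO. Nfix made up 31.2 ± 1.76% of that sum in control (29.1 to 32.8%) and 24.3 ± 3.67% in Sufu-cKO (21.6 to 29.6%). Of the Sufu-cKO samples, Mut_295 lay within the control range of the Nfix share and the others lay below it. The difference of -6.92 percentage points did not pass a 2-sided exact permutation test (p = 0.0571, 0.114 adjusted over the 4 members). Nfia made up 22.8 ± 1.44% and 26.5 ± 1.77%, with the same exact p (0.0571, adjusted 0.114). Shares of Nfib (41.8 ± 0.884% and 44.7 ± 3.10%; exact permutation p = 0.114) and Nfic (4.15 ± 0.3997% and 4.45 ± 0.909%; exact permutation p = 0.571) did not pass either. Even at the smallest 2-sided exact permutation p of this design (p = 0.0286), Nfix alone could not have passed the adjustment over the 4 members. The test therefore leaves unanswered whether the shares differ between genotypes.

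**Figure D3:**
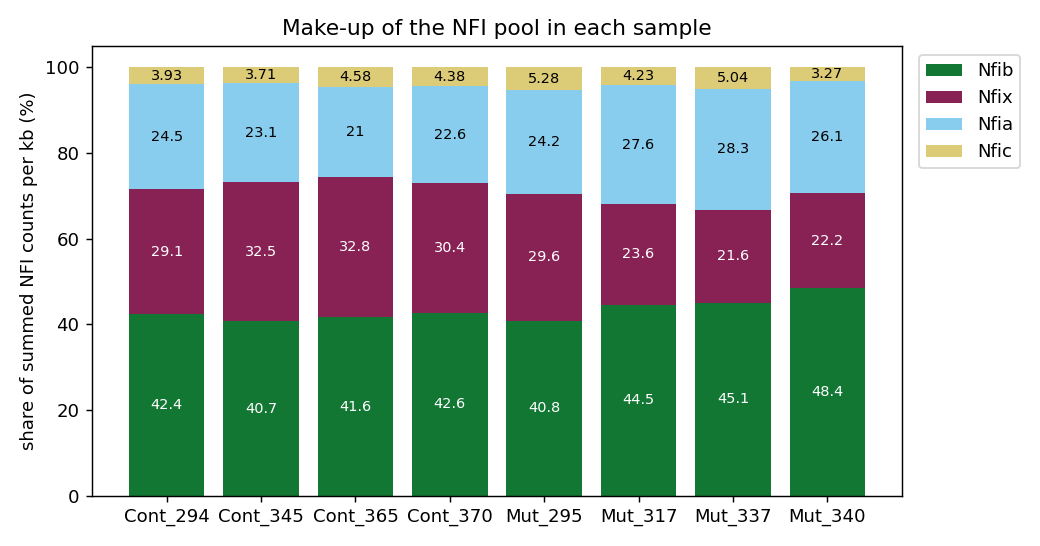
Share of each NFI gene in the summed NFI counts per kb of exon, in percent, as a stacked bar for each of the 8 samples. The Nfix share is 29.1 to 32.8% in control and 21.6 to 23.6% in all Sufu-cKO samples except Mut_295, at 29.6%.

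Whether Nfix fell more than the other members was asked with the log2 ratio of their counts within each library, which does not depend on scaling. Nfic over Nfix was -3.06 ± 0.15 in control and -2.61 ± 0.27 in Sufu-cKO (SD, n = 4 each) without overlap, a difference of 0.45 at the smallest 2-sided exact permutation p of this design (p = 0.0286). Nfia over Nfix differed by 0.59 (exact permutation p = 0.0571) and Nfib over Nfix by 0.47 (exact permutation p = 0.0857), both with Mut_295 among the controls. Adjusted over the 6 pairs, each of these 3 had p = 0.171 (exact permutation test). Had all 3 pairs with Nfix reached the smallest exact p, their adjusted value would be 0.0571, so this test could not have passed on them alone and leaves unanswered whether Nfix fell more. The pairs without Nfix differed by 0.01 to 0.14 (exact permutation p from 0.114 to 1).

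Genes that overlap or neighbour the members were compared next. Reads in exon bases shared by a gene and its antisense partner can be told apart only by strand. The strand setting of the counting is not given in the sources used here. Of 9 overlapping gene models 5 were tested, all on the opposite strand. Gm11266, an antisense RNA within Nfib that shares 0 exon bases with it, fell from 36.4 ± 4.56 to 23.8 ± 5.07 CPM (n = 4 each; log2 fold change -0.61; edgeR, adjusted p = 0.0248). Its 8 values were 37.9, 42.1, 32.7 and 32.8 CPM in Cont_294, Cont_345, Cont_365 and Cont_370, and 24.99, 23.6, 17.1 and 29.4 CPM in Mut_295, Mut_317, Mut_337 and Mut_340, without overlap. Gm11266 lost its call in 3 leave-one-out fits, those without Cont_294, Cont_345 or Mut_317 (edgeR, adjusted p up to 0.0718).

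E130114P18Rik, which overlaps the start of Nfia on the opposite strand and shares 4 exon bases with it, had 81.6 ± 6.57 and 68.5 ± 7.58 CPM (n = 4 each; log2 fold change -0.25; edgeR, adjusted p = 0.0873). E130114P18Rik was called lower without Cont_370, without Mut_340, under total count scaling and without the low-count filter (edgeR, lowest adjusted p with 1 sample left out 0.0236). G430095P16Rik, opposite to Nfix with 137 shared exon bases, held 9 to 27 counts per sample and stood at -0.87 (edgeR, adjusted p = 0.0822), with every Sufu-cKO sample below every control sample. Lyl1, a haematopoietic transcription factor gene opposite to Nfix, stood at -0.49, and Gm16104, opposite to Nfic, at -0.52, neither of them called. None of the 8 nearest tested genes outside the members passed, where 11.0% of all tested genes were called in either direction. Log2 fold changes of these 8 ran from -0.32 to 0.10 (edgeR, smallest adjusted p = 0.169). At an unadjusted p under 0.05 there was 1, Mpdz, a scaffold protein gene 847 kb from Nfib, and DESeq2 and limma-voom called none of the 8. Smim24 (-0.32) and Celf5 (0.05) flank Nfic, Dand5 (-0.30) lies beyond Nfix, and Gm12696 (0.10) and Tm2d1 (-0.03) flank Nfia. Trmt1, a tRNA methyltransferase gene next to Nfix, stood at 49.5 ± 4.38 and 48.3 ± 5.63 CPM. Zdhhc21, a palmitoyltransferase gene next to Nfib, had 107 ± 5.53 and 99.4 ± 11.8 CPM.

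**Figure D4:**
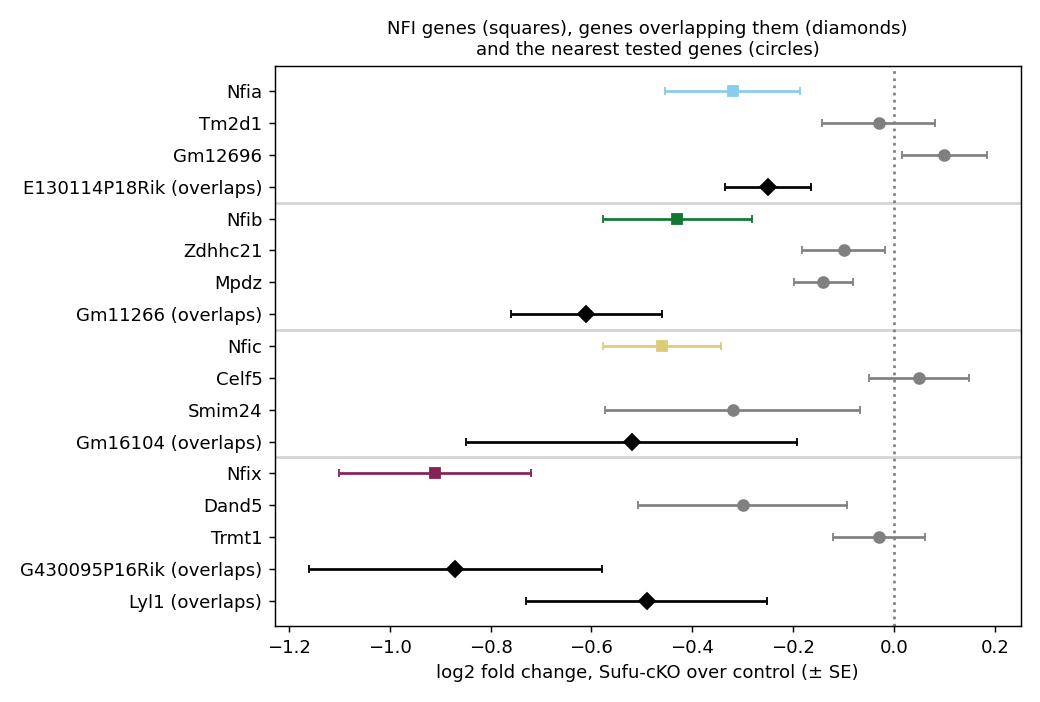
Log2 fold change ± SE, Sufu-cKO over control, of the NFI genes (squares), of tested genes that overlap them on the opposite strand (diamonds) and of the nearest tested gene on each side (circles). Overlapping genes lie between -0.87 and -0.25 and the nearest genes between -0.32 and 0.10.

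Among 16 genes listed as regulators or partners of NFI genes, all tested, 4 rose, 4 fell and 8 did not pass, with a median log2 fold change of -0.11 against 0.01 over all tested genes. Called higher were 5.34% of all tested genes, and called lower 5.64%. Emx2 (log2 fold change -0.72) and Lhx2 (-0.51), homeobox factors of the pallium, fell, as did Tcf4 (-0.79), a bHLH partner of proneural factors. Tcf4 went from 1070 to 617 CPM. Zbtb20, a zinc finger factor of the hippocampal primordium and of gliogenesis, rose from 36.4 to 70.6 CPM (log2 fold change 0.95). Pax6 (0.54) and Sox2 (0.58), factors of radial glia, rose as well. The other 2 called, named after their values were seen, were Pou3f2 (0.60) and Stat3 (-0.33). The first 6 calls held in each of the 8 fits with 1 sample left out (edgeR, adjusted p up to 0.00874). Pou3f3, a POU factor of upper layer neurons, and Fgfr3, an FGF receptor, were the most abundant that did not pass, at 0.04 and 0.40. Sox9, which switches on Nfia in the embryonic spinal cord, had 145 and 127 CPM and was not called (-0.19; edgeR, adjusted p = 0.138).

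Of 18 genes listed as targets or dependents of NFI, 16 were tested. Of these 16, 3 rose, 1 fell and 12 did not pass (median log2 fold change 0.11). Over all tested genes 5.34% were called higher and 5.64% lower. Slc1a3, the glutamate transporter of radial glia and astrocytes, rose from 113 to 286 CPM (log2 fold change 1.34; edgeR, adjusted p = 2.88e-06). Mmd2, a target shared by NFIA and SOX9, rose from 52.5 to 76.5 CPM (0.54; edgeR, adjusted p = 0.0102). Insc, which orients the mitotic spindle, rose from 0.115 to 0.473 CPM (2.01; edgeR, adjusted p = 0.0207), but with 1 to 18 counts per sample. Its call was lost without Cont_345, Cont_365, Cont_370 or Mut_317 (edgeR, adjusted p up to 0.0711). Sparcl1, a matrix protein of radial glia and astrocytes, fell from 85.0 to 61.4 CPM (-0.47; edgeR, adjusted p = 0.0104). Ezh2, a polycomb enzyme that NFI proteins repress later in development, had 468 and 466 CPM and was not called (-0.01; edgeR, adjusted p = 0.964). Cdh2, a neural cadherin, was not called either (0.14). Without Cont_365 or Mut_340, 2 targets were called lower. Gfap, the astrocyte filament gene, had 1 to 12 counts per sample, and Gabra6 had 0 in all 8.

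**Figure D5:**
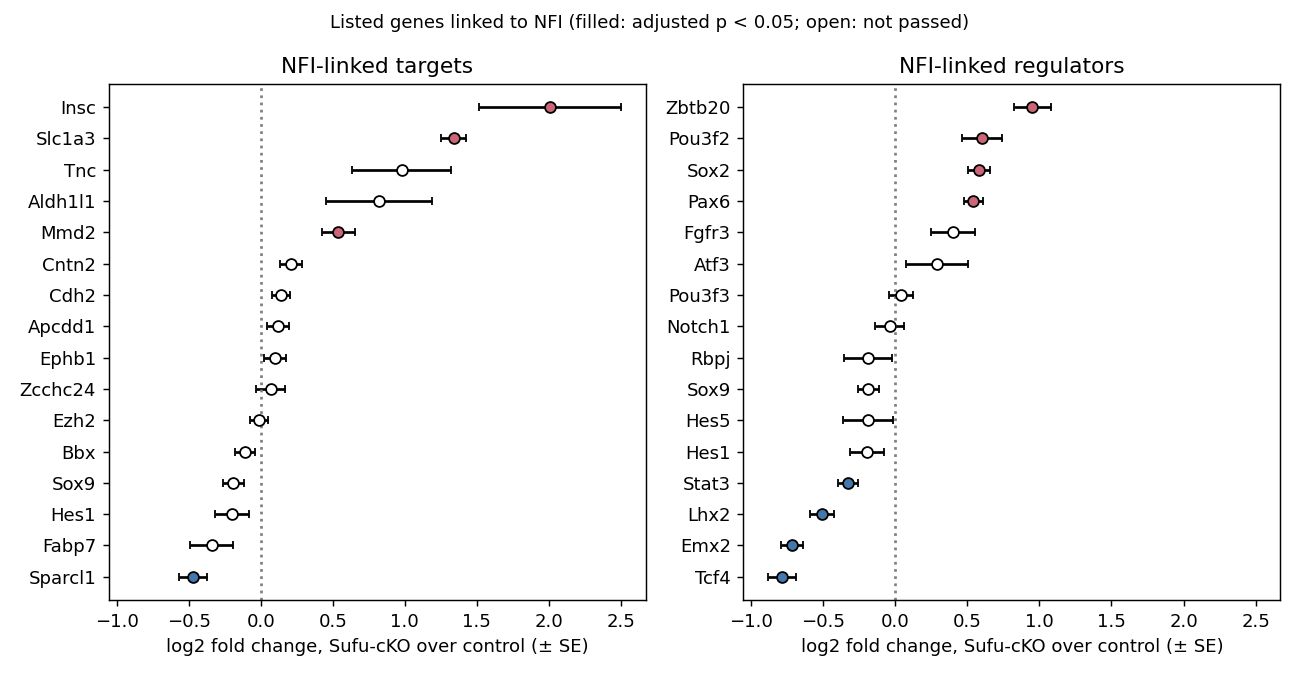
Log2 fold change ± SE, Sufu-cKO over control, of tested genes listed as NFI-linked targets (left, 16 genes) and NFI-linked regulators (right, 16 genes), filled where the adjusted p was under 0.05 (red higher, blue lower). The targets hold 3 filled points above 0 and 1 below, and the regulators 4 above and 4 below.

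Of 22 tested genes of glial competence, 6 rose, 4 fell and 12 did not pass (median 0.04). The shares over all tested genes were 5.34% called higher and 5.64% called lower. Olig2 and Olig1, bHLH factors of the oligodendrocyte lineage and of ventral progenitors, rose by 3.65 and 3.21 on the log2 scale. The glutamate transporter gene Slc1a2 rose from 36.8 to 76.9 CPM (1.06), and Slc1a3, Zbtb20 and Sparcl1 are on this list too. Named after their values were seen, Glul rose (0.18), while Bcan (-3.93), Aldoc (-1.44) and Gja1 (-0.28) fell. Without Cont_294, Cont_345 or Mut_317, 2 of this list were called lower. Fabp7, a lipid carrier of radial glia with NFI sites in its promoter, had 290 and 229 CPM (-0.34) and was not called (edgeR, adjusted p = 0.221). It was called lower without Mut_340 (edgeR, adjusted p = 0.0297). Sox10 (0 to 9 counts per sample), S100b (0 to 5) and Gfap had too few reads to be tested.

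Radial glia, which make NFI proteins, were described by 14 genes, of which 6 rose and 2 fell (median -0.03). Higher and lower calls over all tested genes were 5.34% and 5.64%. The summed level of the 14 genes was 4050 to 4424 CPM in control and 4970 to 5156 in Sufu-cKO, without overlap. The sum is weighted to abundant genes, and 8 of the 14 had a log2 fold change below 0. Named after their values were seen, Sox1 (1.12), Vim, the vimentin gene (0.43), and Nes, the nestin gene (0.42), rose beside Slc1a3, Sox2 and Pax6, while Sox3 (-0.74) and Id4 (-0.55) fell. The most abundant of the 14 were Vim (mean from 998 CPM in control to 1348 in Sufu-cKO) and Nes (from 849 to 1140 CPM). Without Mut_340, 3 of this list were called lower. The part of these cells in the NFI values was not tested.

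NFI genes are also active in early cortical neurons. Of 19 tested genes of early projection neurons 3 rose, 4 fell and 12 did not pass (median -0.20). Beside these counts, 5.34% of all tested genes were called higher and 5.64% lower. Dcx, a microtubule protein of migrating neurons, rose from 512 to 708 CPM (0.47), and Tbr1 (0.29) and the tau gene Mapt (0.44) rose. Tle4, a corepressor of deep layer neurons, fell from 114 to 85.8 CPM (-0.41), as did Fezf2 (-0.43) and Zfpm2 (-0.47), named after their values were seen. Of the most abundant members that did not pass, Tubb3 stood at 0.15 and Neurod6, a bHLH factor of young projection neurons, at -0.28. The number called lower was 1 without Cont_345 or Cont_365 and 2 without Mut_295 or Mut_337.

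NFI genes are also expressed outside the neural lineage, so genes marking other cells were examined. In the choroid plexus list 6 of 11 tested genes fell and all 11 had a log2 fold change below 0. Summed levels were 556 to 838 CPM in control and 107 to 311 in Sufu-cKO. Ttr, named after its values were seen, made up a large part of these sums, with means of 465 and 143 CPM. It was not called (edgeR, adjusted p = 0.0591). Of the choroid plexus genes called, Calml4 (log2 fold change -1.08) and Folr1, a folate receptor (-1.23), passed in every leave-one-out fit. The number called was 3 without Cont_294, Cont_345 or Cont_365. Among 12 endothelial genes 4 fell (364 to 422 CPM in control, 307 to 371 in Sufu-cKO), with Kdr, a VEGF receptor, at -0.29 and Ocln, a tight junction gene, at -0.66. The others, named after their values were seen, were Cdh5 and Ramp2. Only 1 was called without Cont_365 or Mut_317, and 2 without Cont_294, Cont_370 or Mut_340. Among 8 genes listed for pericytes 2 fell (268 to 297 against 176 to 233 CPM), with Vtn, the vitronectin gene, at -0.72 and Notch3, a mural cell receptor, at -0.57. Notch3 made up a large part of these sums, with means of 130.9 CPM in control and 87.95 in Sufu-cKO. Without Cont_345, Notch3 did not pass (edgeR, adjusted p = 0.0516). Among 12 microglial genes 4 fell (72.8 to 90.5 against 52.5 to 69.4 CPM), P2ry12, a purinergic receptor (-0.66), Pf4 (-0.72) and, named after their values were seen, Csf1r and Cx3cr1. None of the 12 passed edgeR without Cont_345, Cont_365, Mut_317 or Mut_340, 1 passed without Cont_294 and 2 without Mut_295. As in choroid plexus, all 12 endothelial, all 8 pericyte and all 12 microglial genes had a log2 fold change below 0. Of all tested genes, 48.2% were below 0 and 5.64% were called lower.

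In the meningeal list 1 of 15 genes rose and 1 fell, where 5.34% of all tested genes rose and 5.64% fell. Summed meningeal levels were 1056 to 1139 CPM in control and 833 to 1770 in Sufu-cKO. Crabp2, a retinoic acid carrier, fell by 0.90 on the log2 scale, and Aldh1a2, a retinoic acid synthase, rose (1.16). Aldh1a2 passed in 2 of the 8 leave-one-out fits. Meningeal genes called lower numbered 9 without Mut_337 and 2 without Cont_370. Of 11 erythroid genes edgeR called 0, with 4 at an unadjusted p under 0.05 and 1 called by DESeq2. All 11 had a log2 fold change below 0 (median -0.34). Their sums were 3577 to 4715 CPM in control and 3083 to 3547 in Sufu-cKO. A large part of these sums was Hbb-y, named after its values were seen, with means of 3104 and 2593 CPM. The 14 tested ventral telencephalic and GABAergic genes summed to 119 to 240 CPM in control and 145 to 358 in Sufu-cKO. Of the genes in these lists that are in the table, none was at 0 in all 8 samples. Their part in the NFI changes was not tested.

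The genes most like each member were taken by the smallest root mean square difference of log2 CPM over the 8 samples, each gene centred on its own mean, among 9676 genes of at least 10 CPM. This is a description, because both genotypes enter it. Closest to Nfia were Zbtb18, a zinc finger transcriptional repressor (0.084), Ccnd2, a D cyclin (0.095), and Rnf152, a ubiquitin ligase (0.097). Nfib came next to them (0.103). Among the genes closest to Nfib were Cnr1, the cannabinoid receptor of projection neurons (0.073), and Plcxd2 (0.096), with Nfia in place 5. The median over all compared genes was 0.28 for Nfia and 0.33 for Nfib.

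Nfic and Nfix had other genes beside them. Closest to Nfic were the pentose phosphate enzyme Tkt (0.061), the guidance molecule Rgma (0.068) and the inositol phosphate kinase Itpk1 (0.068), against a median of 0.31. Closest to Nfix were Grtp1 (0.133), Hrk, a BH3-only activator of cell death (0.141), and Ppp2r2b, a phosphatase subunit of neurons (0.143), against a median of 0.54. Hrk stood at 17.3 CPM in control and 8.18 in Sufu-cKO, and Ppp2r2b at 116 and 61.1 CPM. For Nfix the other members came at places 104 (Nfic), 114 (Nfib) and 237 (Nfia), so that only Nfia and Nfib were near neighbours of each other by this measure.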

How the data were processed

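Members and gene lists were chosen with earlier results of these data known. Per the submitters' processing notes, reads were aligned with STAR 2.4.2a to GRCm38. How reads were counted (program, strand, annotation) and which program made the deposited test is not given in the sources used here. Libraries came from a stranded mRNA kit, per the labels' protocols. The authors deposited raw counts per gene, the input of every test here. Another table holds, per gene, the authors' signal, counts over 1 size factor per sample (within a relative tolerance of 0.0001), and the authors' fold change (a ratio), p-value and false discovery rate. In it 1 gene ID, altered by a spreadsheet, was restored.

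In R 4.3.3, edgeR 4.0.16 (filterByExpr defaults, minimum count 10 and total 15; TMM; quasi-likelihood F-test with robust estimation, Benjamini-Hochberg adjustment) was run on 15382 genes, and genes were called at an adjusted p under 0.05. SEs and intervals were back-calculated from the F statistic. Replicate pairs were checked by chi-square, and all differed beyond sampling noise. Ratios between members had 0.5 counts added. The fit was tested on simulated data. Alternatives were 3 scalings, 2 filters, DESeq2 1.42.0, limma-voom (limma 3.58.1), edgeR without robust estimation, and each sample left out. The rule for named genes took the 4 members, the 3 genes most like each, overlapping and nearest tested genes, and up to 6 called and the 2 most abundant uncalled members of the NFI-linked lists, fewer of the others. Exceptions: Sox9, Gfap, Gabra6, Sox10, S100b and the genes so marked in the text were named after their values were seen. Some genes that the rule takes are not reported here.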

Additional observations from a re-analysis of the deposited data

Results flagged for a closer look

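In 154 groups of 4 samples screened for 1 value far from the rest, 3 stood apart, where chance flags about 1 in 20, and none of them was an NFI gene. Gli1 had 43.6 CPM in Mut_340 against 50.9 to 52.1 CPM in the other Sufu-cKO samples. Cdh2 had 502 CPM in Mut_340 against 470 to 473 CPM in the other Sufu-cKO samples. Fgfr3 had 243 CPM in Cont_294 against 326 to 335 CPM in the other controls.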

How the results depend on the processing

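All 4 members kept a negative log2 fold change in the 8 other settings and the 8 fits with 1 sample left out. Nfib became significant in DESeq2 (-0.44), and Nfix lost its call without the low-count filter (-0.91), and the cause was not tested. Over the fits with 1 sample left out the values ran from -0.42 to -0.22 (Nfia), -0.56 to -0.35 (Nfib), -0.54 to -0.38 (Nfic) and -1.01 to -0.78 (Nfix). Called genes numbered 1079 to 1836, with 542 to 897 lower and 537 to 939 higher, against 1689, 867 and 822 with all samples. The lowest of these counts were those without Cont_345. The difference between Nfib and Nfic ran from -0.17 to 0.14 around 0.01, with its sign changed without Cont_365, Cont_370, Mut_317 or Mut_340, and the cause was not tested. With 4 samples against 3 the exact test cannot go below p = 0.0571. No paired analysis was possible because the genotypes share no replicate numbers. Each member had 707 counts or more per sample, and whether depth or the number of samples limits precision more was not tested.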
